A study of Mus musculus with 399 samples.

Results

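Chemokines and chemokine receptors were followed through liver, gonadal fat, soleus muscle and pancreas of 2 mouse strains. Every gene in the table of raw read counts was taken whose symbol begins with Ccl, Cxcl, Ccr, Cxcr, Xcl, Xcr1, Cx3c or Ackr and a number. Of 63 matching symbols, 3 were pseudogenes and 1, Ccl26, had no read in any library. The remaining 59 genes, out of 44505 genes with at least 1 read, comprised 36 ligands, 19 signalling receptors and 4 atypical receptors.

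The study compared mice of the inbred strains TALLYHO/Jng (TH) and C57BL/6J (B6), of both sexes, on chow or a high-fat diet, at 5 or 20 weeks of age. Mice were weaned onto their diet at 4 weeks and had therefore eaten it for 1 or 16 weeks. Together with the 4 tissues this gave 64 groups of 5 to 10 mice, and 399 poly(A) RNA libraries. TH is an inbred strain prone to obesity and diabetes, and B6 is the common laboratory reference strain. The labels name no engineered allele and no drug in any group, and the strains differ over the whole genome. Whole tissue was taken, so fewer cells of a type and less RNA per cell cannot be told apart in any result here.

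Chemokines are small secreted proteins that guide white blood cells along gradients by binding G protein-coupled receptors on those cells. They are grouped by the spacing of their first cysteines into CC, CXC, XC and CX3C families, and each family's ligands bind receptors named to match. Atypical receptors (Ackr) bind chemokines without G protein signalling and mostly remove or transport them. In obese fat, Ccl2 and its receptor Ccr2 are best known for recruiting monocytes. Ccl11 and Ccl24, the eotaxins, act on Ccr3, the receptor typical of eosinophils, and Cxcl13 draws B cells through Cxcr5.

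Library totals ranged from 1173484 counts in a pancreas library to 22172450 in a fat library, and the tissue medians were 11488613 for soleus, 11235896 for liver, 7773866 for fat and 6559752 for pancreas. Defining genes matched the labelled tissues without overlap: the lowest Alb value in liver was 13040 CPM (counts scaled to 1000000 per library) against at most 514.7 elsewhere, and the lowest Adipoq value in fat was 590.5 against 97.86. Myh7 was at least 6907 in soleus against 47.85, and Prss2 at least 8779 in pancreas against 33.39. Gonadal fat is cut close to the reproductive tract, and 10 epididymis marker genes summed to between 0.143 and 3439 CPM in fat of 20-week B6 males on chow. In liver and fat of those males, 3 of 6 animal labels end in a letter whose meaning is not given, and these mice differed from the other 3 in several chemokines. Moreover, 3 of the 74 mice with liver, fat and soleus libraries had Cxcl9 at more than 1.5 times all mice of their group in all 3 tissues. Lettered labels also cover 5 of 10 pancreas libraries of 20-week TH males on chow. Several results that rest on lettered or high-Cxcl9 libraries are given with and without them, and all lost calls are counted at the end.

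Not all of these genes could be tested everywhere. After removal of genes with few counts, 41 of the 59 were tested in fat, 32 in liver, 23 in soleus and 16 in pancreas. Only 14 passed in all 4 tissues, and 16 passed in none. The latter included the monocyte-drawing ligands Ccl3 and Ccl4, with 344 and 319 reads over all libraries, and the neutrophil receptor Cxcr2, with 533.

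Levels were first compared between genes as CPM per kilobase of exon, because longer transcripts yield more reads. In liver the stromal ligand Cxcl12, which retains blood progenitors and lymphocytes through Cxcr4, led with a mean of 40.1 ± 6.74 CPM per kilobase (SD over 96 libraries). Ccl9, a macrophage-derived ligand of Ccr1, came next at 18.5 ± 6.49. Soleus had Cxcl12 at nearly the same per-length level, 41.7 ± 11.5, followed in median by its scavenging receptor Ackr3 at 11.1 and by Cxcl14 at 10.7. Fat was led by another set: Ccl21b, which guides Ccr7-bearing cells into lymphatics, had a median of 38.4, the eotaxin Ccl11 33.96 and Ccl6 30.8. In fat the spread was as large as the mean for Ccl21b, at 52.1 ± 58.2. Pancreas had the lowest levels, with no median above the 2.60 CPM per kilobase of Ccl11. Libraries were scaled within each tissue, so levels are shares of a tissue's own reads. Differences in level between tissues were not tested. Ccl21a and Ccl21b transcripts are 99.5% identical over 402 aligned bases, Ccl27a and Ccl27b 99.3% over 425, and Ccl19 and a pseudogene 100% over 324. Reads of these pairs could be split either way by the counting, so the division within each pair is uncertain.

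**Figure D1:**
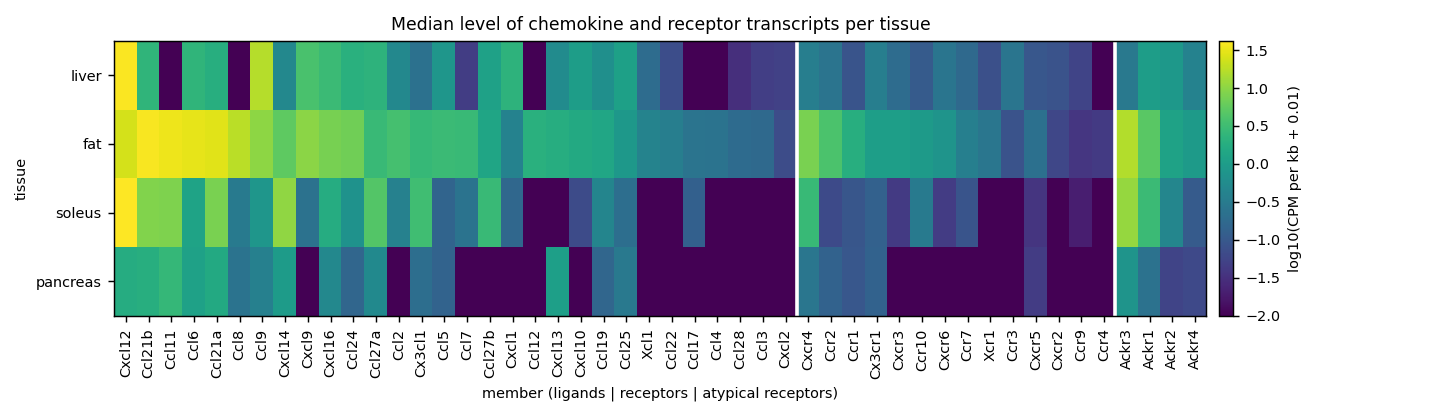
Colour gives the median level over all libraries of a tissue, as log10 of CPM per kilobase plus 0.01, for 48 of the genes (columns: ligands, receptors, atypical receptors) in each tissue (rows). Cxcl12 was among the highest in liver, fat and soleus, and most genes were lowest in pancreas, each tissue being scaled on its own.

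The largest difference between the strains lay in liver Ccr3. At 20 weeks on chow, TH females had 2.41, 3.59 and 4.65 CPM (lowest, median and highest of 6) and TH males 2.25, 3.52 and 5.94. B6 females had 0, 0 and 0.146 CPM and B6 males 0, 0 and 0.141. No TH library came near any B6 library, and most B6 libraries had no Ccr3 read at all. The 12 TH libraries held 480 Ccr3 reads and the 12 B6 libraries 4, a ratio of 115 per sequenced depth, with a 95% exact binomial interval of 44.8 to 425 that covers counting error only. The strain difference was fitted as 6.55 ± 0.39 on the log2 scale (TH minus B6, ± SE; edgeR quasi-likelihood adjusted p = 2.2e-26), a size that depends on the near-zero B6 counts.

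TH held more Ccr3 reads than B6 at both ages and on both diets; whether the ratio differed with age or diet was not tested for these sums. B6 livers held 44 Ccr3 reads at 5 weeks on chow against 559 in TH, a ratio of 13.7 (10.1 to 19.1). On the high-fat diet the ratio was 11.2 (8.53 to 14.9) at 5 weeks and 36.1 (18.8 to 79.6) at 20 weeks. Averaged over both strains, liver Ccr3 was lower at 20 than at 5 weeks on chow (-1.59 ± 0.31, adjusted p = 6.8e-05). The size of this average depends on the near-zero B6 counts. Pooled over libraries, B6 had 0.305 CPM at 5 weeks and 0.0317 at 20 weeks, from 44 and 4 reads. TH had 4.18 and 3.66 CPM, and age was not tested within a strain. In 20-week TH mice the high-fat diet lowered it by a log2 difference of -0.65 ± 0.20 (adjusted p = 0.0096). Liver medians of TH females were 3.59 CPM on chow and 1.30 on high-fat diet, and those of TH males 3.52 and 3.15; whether the sexes differed in it was not tested. The diet difference in B6, 0.90 ± 0.80, did not pass, nor did the difference between the strains' diet responses (-1.54 ± 0.88, adjusted p = 0.35).

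Because Ccr3 carried this difference, the letters around its annotated start are shown, from 250 bases before to 50 after it in RefSeq (build GRCm38.p6, chr9:124021721-124022020, plus strand). Capitals mark a match to the NF-kappaB motif, on the minus strand.
Ccr3: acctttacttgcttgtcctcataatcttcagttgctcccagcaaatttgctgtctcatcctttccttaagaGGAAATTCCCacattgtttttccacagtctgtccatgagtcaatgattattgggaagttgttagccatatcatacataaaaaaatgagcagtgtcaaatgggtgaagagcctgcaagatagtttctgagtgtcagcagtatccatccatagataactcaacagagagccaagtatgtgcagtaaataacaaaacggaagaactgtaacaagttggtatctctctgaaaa

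The sequence comes from the reference and not from TH. A match to this motif, on either strand, occurred in 4.51% of all 32851 promoters of that length, and in 10 of the 53 promoters listed for 46 of the 59 genes, some with several starts.

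Ccr3 was also counted in fat. There, TH libraries held 55 reads and B6 libraries 7 at 5 weeks on chow, a ratio of 10.2 (4.62 to 26.5), and 95 against 28 at 20 weeks, a ratio of 3.76 (2.45 to 5.96). Fat group medians ran from 0 CPM in B6 males on chow at 5 weeks to 1.91 CPM in TH males on high-fat diet at 20 weeks, and the groups overlapped. The fitted fat strain differences were 3.18 ± 0.75 at 5 weeks (adjusted p = 7.9e-04) and 1.70 ± 0.62 at 20 weeks (adjusted p = 0.033). The latter did not pass without the lettered animal labels (1.43, adjusted p = 0.15). In soleus, 14 of 16 groups had no Ccr3 read in any library, and in pancreas no library exceeded 0.652 CPM. Of the eosinophil markers, Prg2 and Epx, which encode eosinophil granule proteins, had a median of 0 in every liver group, and Ear2 was lower in TH liver (-1.19 ± 0.29 at 20 weeks). Summed over the 9 eosinophil markers, TH females on chow had 0.704, 1.18 and 2.82 CPM at 20 weeks and B6 females 1.66, 2.23 and 2.49. For liver, the other eosinophil markers are not given singly, nor are the sums in males. In fat, 2 of 4 tested eosinophil markers were higher in TH at 20 weeks, Siglecf (2.17 ± 0.64) and Ear1 (1.52 ± 0.35). The part of eosinophils in the liver and fat Ccr3 differences was not tested.

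Liver Cx3cr1, the fractalkine receptor of resident macrophages and patrolling monocytes, was also higher in TH. At 20 weeks on chow its levels were 2.58, 3.35 and 4.02 CPM in TH females and 1.97, 4.03 and 7.20 in TH males. B6 females had 0.543, 1.01 and 1.48 CPM and B6 males 0, 0.794 and 1.32. The strains did not overlap in either sex, at 20 or at 5 weeks. The difference was 2.07 ± 0.25 at 20 weeks (adjusted p = 1.7e-11) and 2.92 ± 0.25 at 5 weeks (adjusted p = 1.0e-17). Its ligand Cx3cl1 went the other way in liver at 20 weeks (-0.67 ± 0.27, adjusted p = 0.034). Without the low-count filter that call did not hold (edgeR adjusted p = 0.067).

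Ccl24, a ligand of Ccr3, also had liver levels that were apart between the strains in both sexes at 20 weeks. TH females had 3.03, 3.98 and 4.14 CPM and B6 females 1.04, 1.51 and 2.15. Males of TH had 2.39, 2.96 and 4.48 CPM and males of B6 0.440, 0.730 and 1.34. The difference was 1.56 ± 0.19 at 20 weeks (adjusted p = 5.9e-11) and 0.49 ± 0.17 at 5 weeks (adjusted p = 0.019), when females but not males were apart. The atypical receptor Ackr1, which carries chemokines across venules, was higher by 0.82 ± 0.19 and 0.69 ± 0.18 at the 2 ages.

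**Figure D2:**
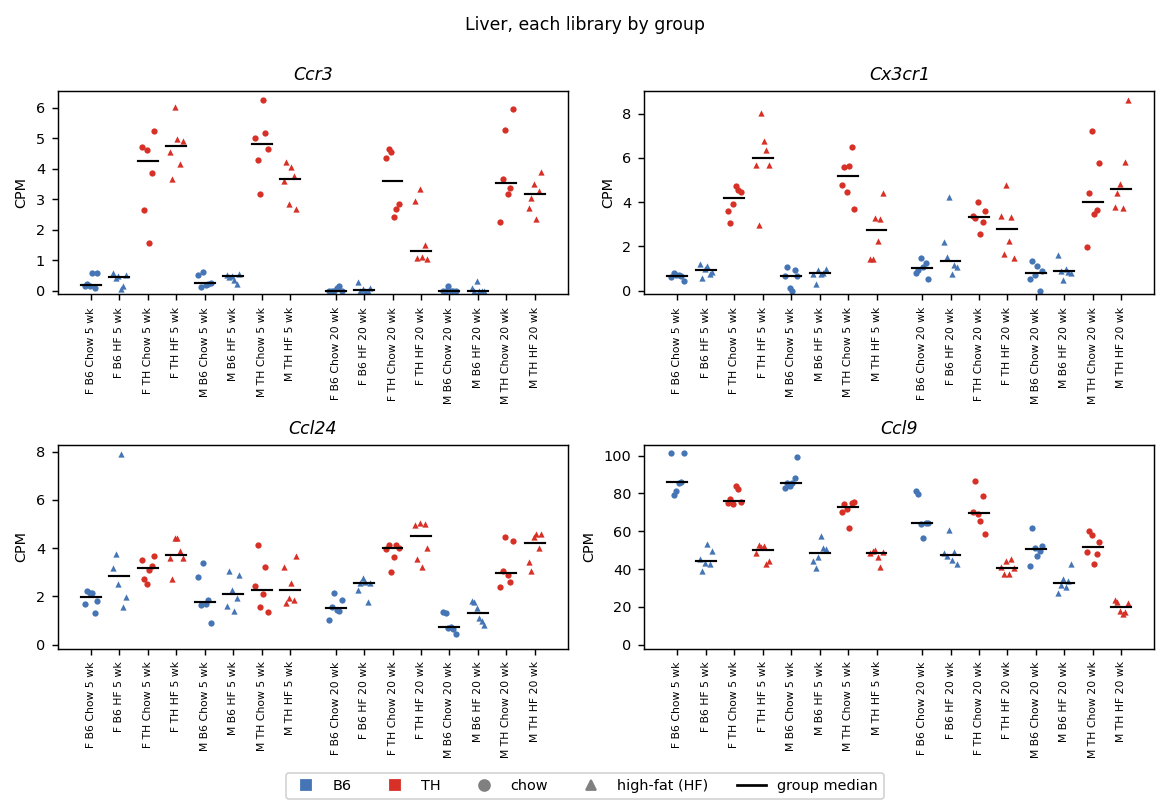
Each point is the CPM (linear axis) of Ccr3, Cx3cr1, Ccl24 or Ccl9 in 1 liver library, by sex, strain, diet and age, with a bar at the group median. TH and B6 were apart for Ccr3 and Cx3cr1 on chow in both sexes, and Ccl9 was lower on the high-fat diet in both strains.

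Most other strain differences in liver were lower values in TH. At 20 weeks, 16 of 32 tested genes passed, 4 up and 12 down, beside 42.2% of all 17243 liver genes tested (21.2% up, 21% down). At 5 weeks 21 passed, 7 up and 14 down, beside 38.8% of all genes (18.7% up, 20.1% down). Their median log2 difference was -0.40 at each age, against medians of all genes near 0. Of 19 ligands, 7 were lower and 1 higher at 20 weeks, and of 9 receptors 5 were lower and 2 higher.

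Liver Cxcl13 had 0.281, 0.556 and 0.990 CPM in 20-week TH males on chow and 1.03, 1.60 and 4.65 in B6 males, which did not overlap. Females overlapped, with 0.406 to 2.04 in TH and 0.607 to 5.63 in B6. Cxcl13 was lower in TH by -1.79 ± 0.39 at 20 weeks and -1.71 ± 0.48 at 5 weeks (adjusted p = 7.5e-05 and 0.0025). Xcr1, the receptor of cross-presenting dendritic cells, was low in every group (highest median 0.951 CPM) and was lower in TH by -2.21 ± 0.57 and -1.25 ± 0.42.

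Cxcr6, a receptor of liver-resident lymphocytes, and its ligand Cxcl16 were both lower in TH at 20 weeks (-1.08 ± 0.33 and -0.59 ± 0.15). Ccl6 was lower in TH as well (-0.72 ± 0.18), and at 5 weeks its female groups were apart, with 1.62 to 3.92 CPM in TH and 3.93 to 7.21 in B6. Ccl5 differed by -1.61 ± 0.39 at 5 weeks. These genes moved with macrophage markers: 11 of 15 were lower in TH liver at 20 weeks and 10 at 5 weeks, none higher, and their sum had medians of 219.6 CPM in TH females and 362.8 in B6 females on chow at 20 weeks. The part of macrophages in the chemokine differences was not tested. Among 26 tested genes of receptor signalling (G proteins, kinases, arrestins and the Rac pathway), 14 were lower and 3 higher in TH at 20 weeks, with a median of -0.51.

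Ccl2, the main monocyte attractant, was called lower in TH liver at 20 weeks (-1.39 ± 0.44, adjusted p = 0.0078), and this rested on a few B6 males. B6 males had 0.293, 1.67 and 5.24 CPM and TH males 0.153, 0.446 and 0.703, while females of the strains overlapped (0.292 to 1.10 in B6, 0.337 to 0.673 in TH). The 3 B6 males whose labels end in a letter had 2.54, 4.89 and 5.24 CPM of Ccl2 and the other 3 had 0.294, 0.331 and 0.802. Without lettered labels the difference was -0.22 (adjusted p = 0.79). The neutrophil attractant Cxcl1 split the same males further, into 25.1, 60.4 and 83.95 CPM with a letter and 1.44, 2.86 and 3.82 without. All 4 calls for Cxcl1 at 20 weeks that use this group were lost when lettered labels were left out: the sex difference went from 2.14 to 0.42 (adjusted p = 0.37), the B6 diet difference from -1.74 to -0.09 (adjusted p = 0.92), and the strain difference in diet response from 1.99 to 0.34 (adjusted p = 0.79). The sex difference in the strain effect, -2.87, changed sign to 0.57 (adjusted p = 0.78). At 5 weeks, where no label has a letter, Cxcl1 was higher in TH by 1.25 ± 0.36 (adjusted p = 0.0032), with medians of 6.64 and 7.23 CPM in TH and 1.77 and 4.37 in B6.

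Ccl9 was lower on the high-fat diet in liver of both strains, both sexes and both ages. After 1 week on the diet, B6 females had 38.9, 44.1 and 53.3 CPM against 79.3, 85.8 and 101.5 on chow. B6 males had 40.6, 48.4 and 57.7 against 82.7, 85.5 and 99.5. In TH, females had 42.6, 49.98 and 52.8 against 74.5, 76.2 and 84.1, and males 41.2, 48.6 and 50.1 against 61.9, 73.01 and 75.7. High-fat and chow did not overlap in any of the 4 pairs of groups. The difference was -0.77 ± 0.05 (adjusted p = 3.4e-25).

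At 20 weeks the fall in Ccl9 was larger in TH, at -1.09 ± 0.07, than in B6, at -0.55 ± 0.07, and this difference between strains passed its own test (-0.55 ± 0.10, adjusted p = 7.7e-05). TH males reached the lowest level of any liver group, 16.4, 19.7 and 23.6 CPM, against 42.7, 51.8 and 60.2 on chow. B6 males on the high-fat diet had 27.4, 32.5 and 42.8 CPM and overlapped narrowly with chow at 41.8, 50.5 and 61.7. In fat no diet comparison of Ccl9 passed, and its median was 201 CPM in 20-week TH males on high-fat diet, the highest of the 16 fat groups. In soleus of 20-week TH mice it rose by 0.90 ± 0.21.
The start of Ccl9 is shown for this response (RefSeq, GRCm38.p6, chr11:83578587-83578886, minus strand). Capitals mark an NF-kappaB match on the strand opposite to the letters shown.
Ccl9: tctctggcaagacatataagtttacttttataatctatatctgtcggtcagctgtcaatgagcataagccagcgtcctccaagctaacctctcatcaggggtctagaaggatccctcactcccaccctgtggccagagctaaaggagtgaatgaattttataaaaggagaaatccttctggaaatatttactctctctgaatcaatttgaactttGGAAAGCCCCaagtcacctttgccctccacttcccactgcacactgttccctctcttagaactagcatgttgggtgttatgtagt

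Most other liver calls for the diet were rises. In TH at 20 weeks 9 of 32 genes passed, 7 up and 2 down, beside 26.1% of all genes (13.6% up, 12.6% down). In B6 10 passed, 8 up and 2 down, beside 23.4% (11.8% up, 11.6% down), and at 5 weeks 7 passed over both strains, 5 up and 2 down, beside 23.1% (10.7% up, 12.4% down). Without the low-count filter the count at 5 weeks was 4. Ccr2, the Ccl2 receptor, rose by 1.35 ± 0.27 in TH (adjusted p = 5.0e-05): TH males had 2.62, 4.50 and 10.2 CPM on the diet and 0.396, 1.01 and 2.40 on chow, with no overlap. TH females overlapped, with medians of 1.65 and 1.06. Ccl6 rose by 0.75 ± 0.18 in TH, and only the male groups were apart (3.73 to 6.14 CPM against 1.27 to 3.67). Ccl2 rose by 1.18 ± 0.44 (adjusted p = 0.038) in TH, a call that did not hold without the low-count filter (edgeR adjusted p = 0.0704). Macrophage markers rose beside them, 11 of 15 in TH, 8 in B6 and 5 at 5 weeks, none falling, and their part in these rises was not tested.

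In B6 the rise included Cxcl9, a T-cell attractant induced by interferon, by 1.36 ± 0.40 (adjusted p = 0.0087), its receptor Cxcr3 by 1.31 ± 0.37, Ccl5 by 0.95 ± 0.32 and Ccr2 by 0.83 ± 0.26. B6 males had 11.97, 16.9 and 26.3 CPM of Cxcl9 on the diet and 8.34, 10.0 and 11.3 on chow, without overlap. B6 females had 14.1, 27.5 and 121 against 7.85, 9.85 and 17.1, and overlapped. The value of 121 belongs to 1 of the mice high in Cxcl9 in all tissues, and without its liver library 5 of the 10 B6 diet calls remained (Cxcl9 0.99, adjusted p = 0.064). Without that library Ccl5 was at 0.50 (adjusted p = 0.22) and Ccr2 at 0.55 (adjusted p = 0.11), and neither passed. Without lettered labels 2 calls remained, and Cxcl9, Cxcr3, Ccl5 and Ccr2 were not among them (adjusted p from 0.057 to 0.112). Apart from Ccl9 and Cxcl1, no gene's diet response was found to differ between strains (2 of 32 passed, beside 3.89% of all genes, 2.03% up, 1.86% down).

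By sex, 12 of 32 liver genes passed at 20 weeks on chow, 4 higher and 8 lower in males, beside 44.5% of all genes (20.3% up, 24.2% down). Ccl9 was lower in males by -0.45 ± 0.07, Ccl5 by -1.05 ± 0.36 and Xcr1 by -1.67 ± 0.58. Ccl25, which guides gut-homing T cells, was higher by 0.37 ± 0.09. The strain difference varied with sex for 1 gene, the Cxcl1 result given above (0 with only the groups compared), beside 4.88% of all genes (1.65% up, 3.24% down). From 5 to 20 weeks on chow, 9 passed beside 21.5% of all genes (9.25% up, 12.2% down), 4 up and 5 down. Cxcl13 rose by 1.24 ± 0.31 and Cxcr6 by 0.73 ± 0.26, while Ccl21b fell by 0.88 and Ccl9 fell by 0.44, with male groups apart in both strains for Ccl9. Without the low-count filter the Cxcr6 call did not hold (edgeR adjusted p = 0.062).

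**Figure D3:**
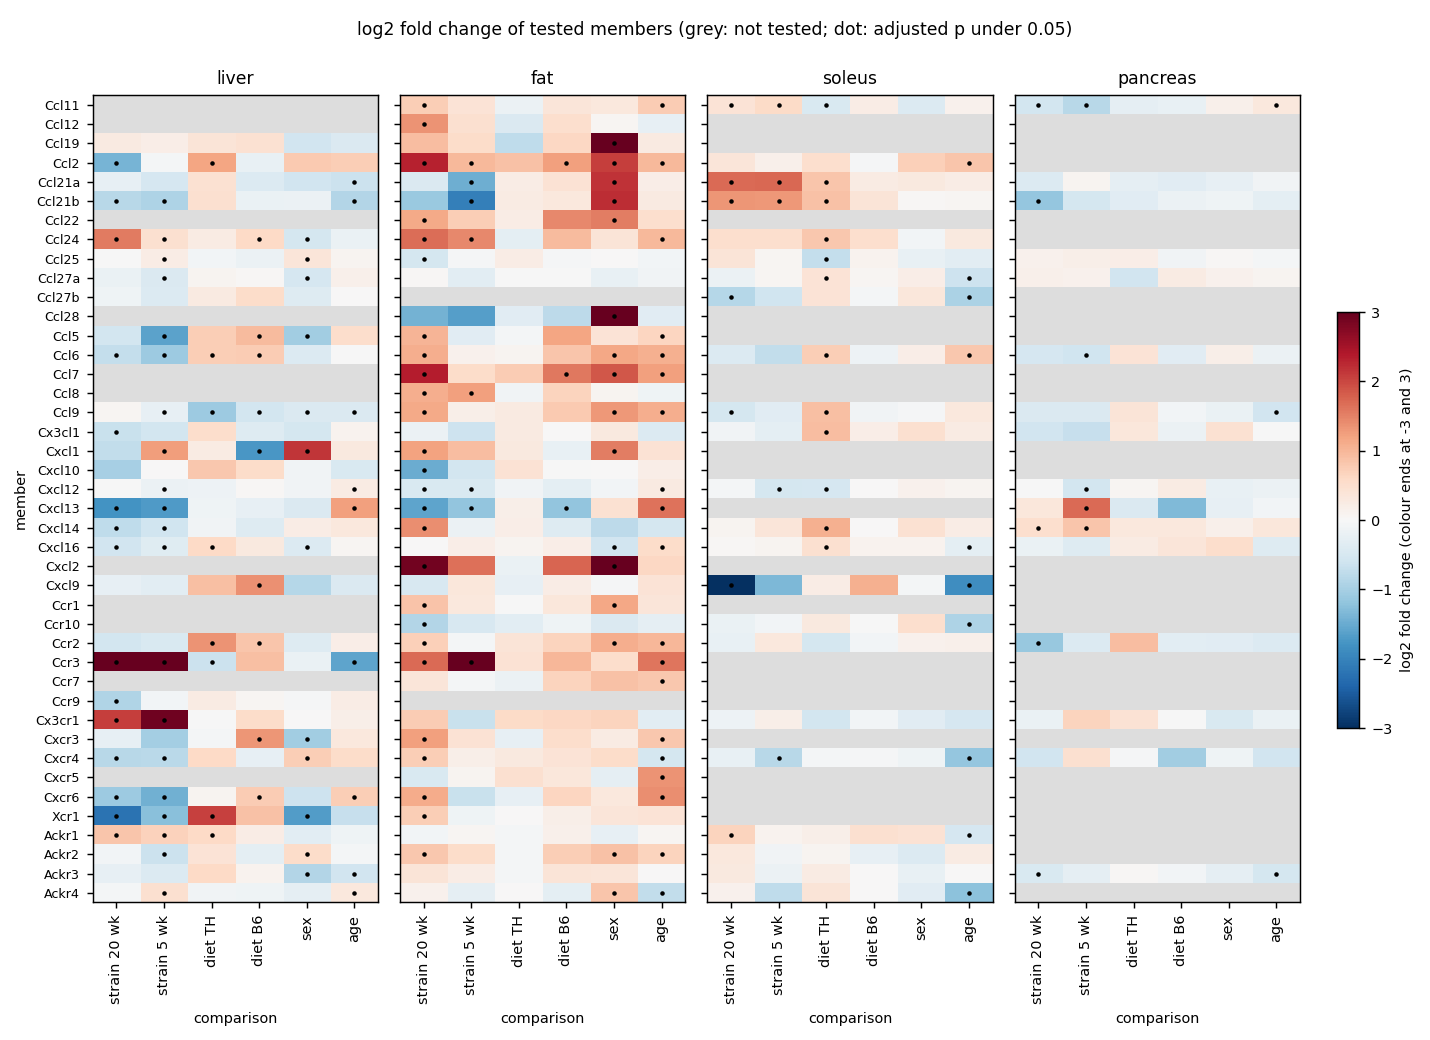
Colour gives the log2 fold change (ending at -3 and 3) of 42 tested genes (rows) in 6 comparisons (columns) for each tissue, grey where a gene was not tested, and a dot marks an adjusted p under 0.05. Fat at 20 weeks has dots for 21 genes higher and 5 lower in TH, and none for the high-fat diet in TH.

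In gonadal fat most strain calls at 20 weeks were higher values in TH. At 20 weeks on chow 26 of 41 tested genes passed, 21 higher and 5 lower in TH, beside 25.6% of all 19715 fat genes tested (12.3% up, 13.4% down). The genes' median log2 difference was 0.74, against -0.04 over all genes. Ligands (13 up and 4 down of 25) and receptors (7 up and 1 down of 12) both leaned upward.

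Among the genes higher in TH were the monocyte attractants Ccl2 and Ccl7. Ccl7 had 9.04, 15.3 and 32.5 CPM in TH males and 1.00, 4.13 and 6.33 in B6 males, and 1.82, 5.36 and 8.70 in TH females against 0.287, 0.866 and 1.61 in B6 females. The strains did not overlap in either sex. The difference was 2.35 ± 0.37 (adjusted p = 2.9e-07). For Ccl2, females were apart (4.88, 5.72 and 9.92 CPM in TH, 0.606, 1.37 and 1.93 in B6). Males overlapped narrowly, at 9.40, 32.8 and 44.5 in TH and 1.58, 5.60 and 9.71 in B6. The Ccl2 difference was 2.30 ± 0.37 (adjusted p = 5.5e-07), and at 5 weeks it was 0.97 ± 0.37 (adjusted p = 0.046). On high-fat diet, TH males had the highest Ccl2 of the fat groups, 15.4, 81.99 and 119 CPM.

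Their receptor Ccr2 had 49.7, 89.6 and 107 CPM in TH males and 22.6, 35.8 and 80.2 in B6 males, while female medians lay close at 23.5 and 23.9. Ccr2 was higher in TH by 0.71 ± 0.23 (adjusted p = 0.014), a call that did not hold without lettered labels (0.61, adjusted p = 0.089). Ccl24 was higher by 1.67 ± 0.29 at 20 weeks and by 1.45 ± 0.29 at 5 weeks (adjusted p = 2.6e-06 and 7.4e-05). At 20 weeks TH females had 17.7, 25.9 and 39.8 CPM of Ccl24 and B6 females 1.77, 5.42 and 8.62, without overlap. Ccl11, the other eotaxin, was higher by 0.73 ± 0.22 at 20 weeks.

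Cxcl14, a ligand made by epithelia and fat, was higher by 1.41 ± 0.34. TH males had 8.02, 13.5 and 34.9 CPM and B6 males 2.84, 4.09 and 5.34, which were apart. The neutrophil attractants Cxcl1 (1.2 ± 0.37) and Cxcl2 (2.89 ± 0.75) were also higher. Cxcl2 rested on few reads, 71 in TH and 17 in B6, a ratio of 4.63 (2.70 to 8.39), and no read in any of the 6 B6 females. The lymphocyte receptors Cxcr3 (1.23 ± 0.28) and Cxcr6 (1.10 ± 0.25) were higher, and for Cxcr6 the female groups were apart at 2.31 to 5.20 CPM in TH and 0.642 to 1.77 in B6.

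Several genes ran against this. Cxcl10, induced by interferon like Cxcl9, was lower in TH fat by -1.49 ± 0.24 (adjusted p = 8.4e-07). TH males had 1.17, 2.03 and 2.77 CPM and B6 males 5.17, 8.16 and 9.26, without overlap, while females overlapped (1.97 to 4.23 and 3.41 to 8.53). Cxcl13 was lower by -1.59 ± 0.32, Ccr10 by -0.88 ± 0.25, Ccl25 by -0.53 ± 0.13 and Cxcl12 by -0.45 ± 0.13. Cxcl12 had 171, 196 and 247.2 CPM in TH females and 253, 301 and 358 in B6 females, which were apart.

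Macrophage markers moved with the fat genes. Of 15 tested, 9 were higher in TH at 20 weeks and none lower, among them Gpnmb (2.54 ± 0.43), Itgax (2.33 ± 0.35) and Cd68 (1.98 ± 0.29). Their summed level was 2186, 2943 and 5026 CPM in TH males, 859.3, 1127 and 2006 in B6 males, 1163, 1478 and 2074 in TH females and 308.1, 613.4 and 1597 in B6 females. T-cell markers were higher for 3 of 10, and so were 2 of 4 neutrophil markers, S100a8 (2.12 ± 0.44) and Csf3r (1.36 ± 0.22). Their part in the chemokine differences was not tested. Of 27 receptor signalling genes, 19 were higher and 1 lower, with a median of 0.46. Among 15 tested inducers of chemokine transcription (cytokines, NF-kappaB and lymphotoxin genes), 3 were higher and 1 lower. Of 16 genes that retain or trim chemokines (proteoglycans and proteases) 5 were higher, and of 10 chemokine-like genes outside the symbol rule 1 was higher. Ovary, oviduct and uterus markers were lower for 1 of 7.

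At 5 weeks 8 of 41 passed, 4 up and 4 down, beside 21.3% of all genes (9.01% up, 12.3% down): Ccr3, Ccl24, Ccl8 (1.22 ± 0.35) and Ccl2 were higher, and Ccl21a, Ccl21b, Cxcl13 and Cxcl12 lower. Without the low-count filter the Ccl2 and Ccl21a calls did not hold (edgeR adjusted p = 0.069 and 0.065), nor with only the groups compared (0.054 and 0.068). Ccl21a was also lost without deviating libraries (0.051). Ccl21b differed by -2.05 ± 0.55, but its values ran from 0.218 to 9.86 CPM in TH females and from 1.195 to 42.1 in B6 females and overlapped widely. Whether the strain differences changed between the ages was not tested.

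**Figure D4:**
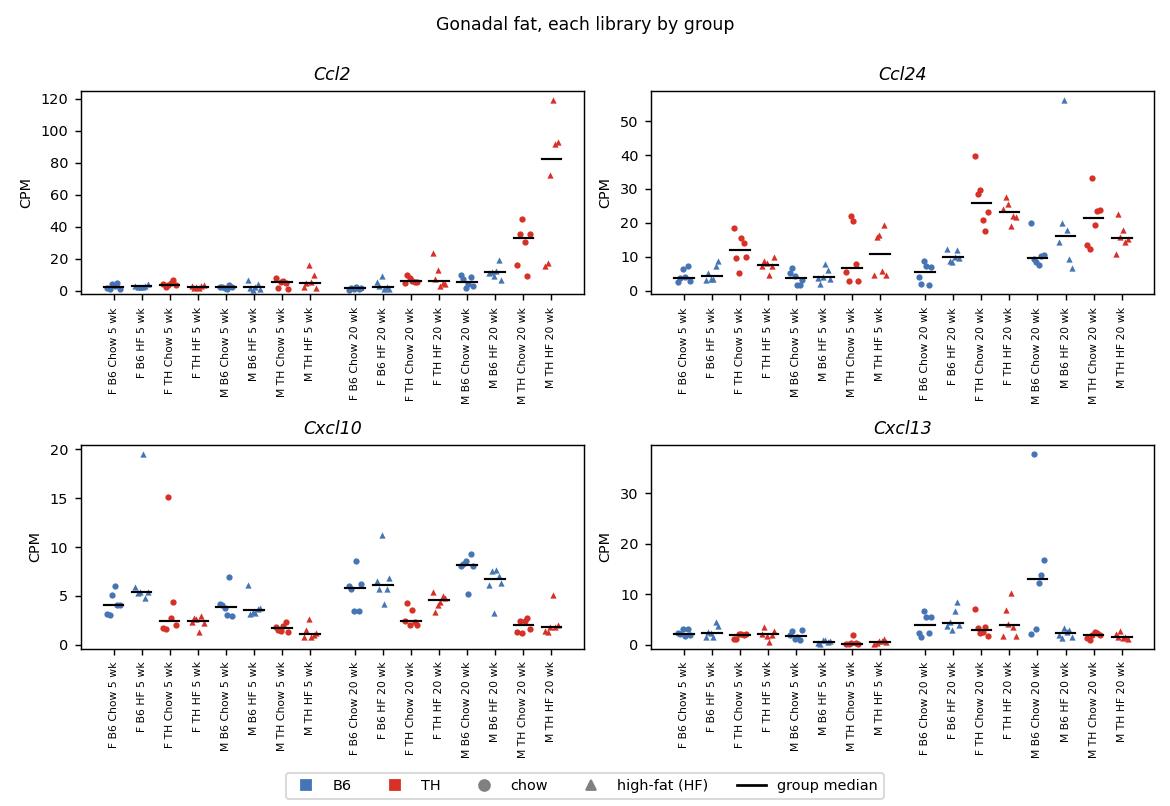
Each point is the CPM (linear axis) of Ccl2, Ccl24, Cxcl10 or Cxcl13 in 1 gonadal fat library, by sex, strain, diet and age, with a bar at the group median. On chow at 20 weeks Ccl2 and Ccl24 were apart between strains in females and Cxcl10 in males. In that group of B6 males, those with lettered labels had 12.2, 13.9 and 37.7 CPM of Cxcl13. Those without a letter had 2.10, 3.16 and 16.9.

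Sex also divided fat. Of 41 genes 16 passed at 20 weeks on chow, 15 higher and 1 lower in males, beside 14.6% of all genes (8.67% up, 5.93% down). Ccl19, which with Ccl21 draws Ccr7-bearing cells to lymphoid tissue, had 2.01, 3.87 and 9.19 CPM in B6 males against 0, 0.327 and 1.01 in B6 females, and 1.83, 7.11 and 16.1 in TH males against 0.407, 0.911 and 1.38 in TH females. The sexes did not overlap in either strain. The difference was 3.31 ± 0.39 (adjusted p = 2.5e-10). Ccl21b (2.23 ± 0.56) and Ccl21a (2.17 ± 0.56) were also higher in males but overlapped. Ccl2 was higher in males by 2.08 ± 0.37, Ccl7 by 1.86 ± 0.36, Ccl9 by 1.31 ± 0.29 and Ccr2 by 1.08 ± 0.23.

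Ccl28, a ligand of mucosal epithelia, showed the largest fitted sex difference in fat, 4.13 ± 0.91, and came from few libraries. Its male values were 0.334, 0.745 and 29.02 CPM in B6 and 0, 0.700 and 41.4 in TH, against 0.606, 0.895 and 5.30 and 0, 0 and 0.424 in females. Leaving out 6 fat libraries with deviating profiles gave 2.84, and leaving out lettered labels gave 3.01. Epididymis markers were higher in males for 3 of 10, and their part in the sex differences was not tested. Macrophage markers were higher in males for 6 of 15.

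The strain difference of Cxcl13 and of its receptor Cxcr5 varied with sex. B6 males had 2.10, 13.0 and 37.7 CPM of Cxcl13 and TH males 0.841, 1.87 and 2.52, while female medians were 3.91 and 2.93. Cxcr5 had medians of 2.48 and 0.469 CPM in B6 and TH males and of 0.802 and 1.60 in females. The male minus female strain difference was -2.80 ± 0.64 for Cxcl13 and -3.43 ± 0.78 for Cxcr5 (adjusted p = 0.01 and 0.0089). Ackr4, a scavenger of Ccl19 and Ccl21, and Ackr3 also passed (-2.23 ± 0.60 and -1.30 ± 0.34), so that 4 of 41 passed, beside 1.48% of all genes (0.938% up, 0.538% down). The B-cell markers Pax5 (-3.34 ± 0.71) and Ms4a1 (-2.65 ± 0.70) differed the same way, 2 of 8 tested, while 3 of 15 macrophage markers differed the other way, and their part was not tested. Without lettered labels Cxcl13 gave -1.84 (adjusted p = 0.19), Cxcr5 -2.64 (adjusted p = 0.125) and Ackr4 -2.01 (adjusted p = 0.122), and 1 of the 4 calls remained. Without the low-count filter 2 passed. The 3 lettered B6 males had 12.2, 13.9 and 37.7 CPM of Cxcl13 and the other 3 had 2.10, 3.16 and 16.9.

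With age most calls in fat were rises. From 5 to 20 weeks on chow 20 of 41 passed, 18 up and 2 down, beside 27.3% of all genes (13.4% up, 13.9% down). Cxcl13 rose by 1.64 ± 0.24, Cxcr6 by 1.39 ± 0.19, Cxcr5 by 1.34 ± 0.29, Ccl7 by 1.22 ± 0.26 and Ccr2 by 1.00 ± 0.16. Ackr4 (-0.74 ± 0.21) and Cxcr4 (-0.54 ± 0.17) fell. Macrophage markers rose for 13 of 15, T-cell markers for 8 of 10 and B-cell markers for 6 of 8, while epididymis markers fell for 7 of 10. Their part in the age differences was not tested.

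For the high-fat diet few of these genes were called in fat. In B6 at 20 weeks 4 of 41 passed, 3 up and 1 down, beside 2.34% of all genes (1.35% up, 0.984% down). Ccl7 (1.59 ± 0.37) and Ccl2 (1.24 ± 0.37) were among those that rose, and Cxcl13 fell by 1.18 (adjusted p = 0.027). DESeq2 called 7. For Ccl7 the groups overlapped: B6 males had 4.37, 8.97 and 15.4 CPM against 1.00, 4.13 and 6.33, and females 0.610, 2.32 and 8.58 against 0.287, 0.866 and 1.61. Only the Ccl7 call remained without the B6 female high in Cxcl9, and likewise without lettered labels. In TH at 20 weeks edgeR called 0 of 41, beside 0.152% of all genes, with 4 at unadjusted p under 0.05 and 0 by DESeq2. In simulated fat data this comparison found 68 of 100 genes changed by 1 on the log2 scale, and 37 of 97 genes changed less. Genes not called may therefore still have changed. The diet responses of the strains gave 0 calls, beside 0.152%, with 7 at unadjusted p under 0.05 and 0 by DESeq2. At 5 weeks there were 0, beside 0.0609%, with 3 and 0. Ccl2 in TH, at 0.89 ± 0.34 (adjusted p = 0.32), did not pass.

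In soleus muscle the lymphatic ligands Ccl21a and Ccl21b were higher in TH at both ages. At 20 weeks on chow Ccl21a had 9.90, 12.7 and 18.8 CPM in TH females and 1.99, 2.91 and 5.17 in B6 females, and 8.41, 12.2 and 15.5 in TH males against 3.75, 4.81 and 6.82 in B6 males. The strains were apart in both sexes, as they were for Ccl21b. Ccl21a differed by 1.69 ± 0.27 at 20 weeks and 1.72 ± 0.27 at 5 weeks (adjusted p = 2.2e-07 and 3.8e-07), and Ccl21b by 1.32 ± 0.27 and 1.31 ± 0.27. Of 5 tested lymph node and vessel markers 2 were called higher in TH at 20 weeks, beside 27% of all soleus genes tested. These were the lymphatic vessel markers Lyve1 (1.65 ± 0.26) and Prox1 (1.34 ± 0.30). The lymph node markers Glycam1 and Madcam1 had medians of 0. The fat marker Adipoq was higher as well (1.29 ± 0.31). Their part in the Ccl21 difference was not tested.

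Soleus Cxcl9 was lower in TH. At 20 weeks on chow it had 0, 0.0951 and 0.274 CPM in TH females and 0.284, 0.810 and 1.25 in B6 females, and at most 0.159 in TH males against at least 0.623 in B6 males. The strains did not overlap in either sex. B6 libraries held 126 Cxcl9 reads and TH libraries 13, so B6 exceeded TH by a ratio of 11.3 (6.38 to 21.8). The fitted difference was -3.30 ± 0.73 (adjusted p = 1.7e-04). Altogether 7 of 23 genes passed for strain at 20 weeks, 4 up and 3 down, beside 48.8% of all 17520 soleus genes tested (27% up, 21.8% down). At 5 weeks 5 passed, 3 up and 2 down, beside 16.6% (7.77% up, 8.81% down), including Ccl11 (0.58 ± 0.16), Cxcr4 (-0.83 ± 0.20) and its ligand Cxcl12 (-0.53 ± 0.16).

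On the high-fat diet the soleus of 20-week TH mice changed in 12 of 23 genes, 9 up and 3 down, beside 67.7% of all genes (32.7% up, 35% down). Cxcl14 had 43.8, 71.7 and 91.0 CPM in TH males on the diet and 13.1, 23.5 and 37.97 on chow, without overlap, while females overlapped (14.8 to 54.4 and 16.3 to 27.7). Its rise was 1.07 ± 0.18 (adjusted p = 2.9e-06). Cx3cl1, the membrane-bound ligand of Cx3cr1, had 17.9, 25.8 and 35.3 CPM against 10.8, 13.3 and 17.5 in males and 13.98, 17.3 and 28.8 against 8.34, 10.6 and 12.4 in females. High-fat and chow were apart in both sexes. The rise of Cx3cl1 was 0.92 ± 0.17 (adjusted p = 1.2e-05). Ccl9 rose by 0.90 ± 0.21, and in males it had 3.00, 4.59 and 6.87 CPM against 1.59, 1.77 and 2.63. Ccl25 fell by 0.72, Cxcl12 fell by 0.49 and Ccl11 fell by 0.46.

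No soleus gene passed in B6 on the diet (0 of 23 by edgeR, 2 at unadjusted p under 0.05, 0 by DESeq2, beside 0.114% of all genes). The strains' diet responses differed for 7 genes, 4 up and 3 down, beside 63.4% of all genes (29.9% up, 33.4% down): Cxcl14 (1.05 ± 0.25), Ccl9 (0.99 ± 0.29), Ccl6 (0.89 ± 0.35) and Cx3cl1 (0.73 ± 0.24) were higher in TH, and Ccl25 (-0.83 ± 0.36), Ccl11 (-0.68 ± 0.22) and Cxcl12 (-0.51 ± 0.22) lower. Without lettered labels the Ccl25 (adjusted p = 0.072) and Cxcl12 (adjusted p = 0.078) calls did not hold. Macrophage markers rose in TH for 8 of 14 and fell for 1, and Adipoq rose by 1.26 ± 0.30; their part was not tested. With most of the muscle transcriptome called, the share called among these genes did not exceed that of all genes.

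With age 10 of 23 soleus genes passed, 2 up and 8 down, beside 48.3% of all genes (21% up, 27.3% down). Cxcr4 fell by 1.15 (adjusted p = 9.6e-11): B6 males had 3.21, 14.4 and 21.9 CPM at 5 weeks and 1.65, 3.08 and 3.73 at 20. Ackr4 fell by 1.24, Ccl27b by a log2 difference of -0.95 ± 0.19, Ccr10 by -0.93 ± 0.20 and Ccl27a by -0.62 ± 0.10, a receptor and its ligands. Ccl6 (0.80 ± 0.18) and Ccl2 (0.84 ± 0.29) rose. Cxcl9 was called lower at 20 weeks (-1.87 ± 0.56), and without the single TH female high in Cxcl9 the difference was -0.55 (adjusted p = 0.33). Neither sex (0 of 23, beside 1.71%, 4 at unadjusted p under 0.05, 0 by DESeq2), nor sex by strain (0, beside 0.0742%, 2 and 0), nor diet at 5 weeks (0, beside 2.07%, 1 and 0) gave an edgeR call.

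In pancreas the eotaxin Ccl11 was lower in TH at both ages, by -0.56 ± 0.14 at 20 weeks and -0.84 ± 0.16 at 5 weeks (adjusted p = 6.2e-04 and 1.2e-05). At 5 weeks on chow TH females had 1.495, 2.13 and 2.75 CPM of Ccl11 and B6 females 3.10, 4.06 and 6.00, without overlap, while males overlapped at 1.48 to 2.61 and 1.34 to 5.45. This is opposite in sign to its difference in fat and soleus; the difference between tissues was not tested. Cxcl13 was higher in TH pancreas at 5 weeks by 1.69 ± 0.42 (adjusted p = 8.5e-04), again opposite in sign to liver and fat. Its values in females were 0, 3.01 and 5.65 CPM in TH and 0.143, 1.11 and 1.97 in B6, and they overlapped. At 20 weeks it did not pass (0.34 ± 0.40, adjusted p = 0.59). Ccr2 was lower in TH at 20 weeks (-1.14 ± 0.32): females had 0, 0.536 and 0.716 CPM in TH and 0.921, 1.45 and 2.70 in B6, without overlap.

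At 5 weeks pancreas also had lower Cxcl12 in TH (-0.56 ± 0.11), with females apart at 13.1 to 15.9 and 16.5 to 23.5 CPM, and higher Cxcl14 (0.83 ± 0.23). In all, 5 of 16 genes passed for strain at 20 weeks, 1 up and 4 down, beside 27.1% of all 13367 pancreas genes tested (13% up, 14.1% down), and 5 at 5 weeks, 2 up and 3 down, beside 26% (13% up, 12.9% down). High-fat diet at 5 weeks changed 2 genes, beside 6.03% (2.59% up, 3.44% down): Cxcl12 fell by 0.33 and Cxcl14 rose by 0.56 ± 0.14. Age changed 3, beside 30% (15.5% up, 14.6% down), with Ackr3 (-0.53 ± 0.11) and Ccl9 (-0.57 ± 0.18) lower and Ccl11 (0.31 ± 0.11) higher at 20 weeks. Without lettered labels the Ccl11 age call did not hold (0.29, edgeR adjusted p = 0.055). DESeq2 called 5 for age, as did edgeR without the low-count filter, and edgeR with a block for replicate number called more still. For strain at 20 weeks the count was 3 without that filter and 3 with only the groups compared. The other comparisons gave 0 edgeR calls and 0 by DESeq2: diet in TH (beside 5.74%, 2 at unadjusted p under 0.05), diet in B6 (1.58%, 3, with 1 edgeR call without the low-count filter), the strains' diet responses (1.33%, 3), sex (0.711%, 1) and sex by strain (1.45%, 1).

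Single mice stood apart for the interferon-induced ligands Cxcl9 and Cxcl10. A TH female on chow at 5 weeks had 253 CPM of Cxcl9 in liver, 287 in fat and 22.1 in soleus, while the highest of the 5 others of its group had 8.66, 29.4 and 0.233. Its Cxcl10 was 55.1, 15.1 and 2.95 CPM against at most 1.55, 4.36 and 0.341. Irf1, a transcription factor of the interferon response, was at 192 CPM in its liver against at most 28.5. Ifng, the gene of interferon gamma, had no read in its liver or soleus. In its fat Ifng was 0.0802 CPM, below the highest of the others, 0.257. The highest Ifng value in the 3 mice was 0.650 CPM, in fat of the B6 female at 20 weeks. A B6 female on high-fat diet at 20 weeks had 121, 99.3 and 7.34 CPM of Cxcl9 against at most 38.7, 52.9 and 1.80. A B6 female on high-fat diet at 5 weeks had 132, 227 and 24.6 against at most 25.03, 48.2 and 2.23. In liver and fat, Ifng of the B6 female at 20 weeks was 0.515 and 0.650 CPM, against at most 0.0726 and 0.0803 in its group. That of the B6 female at 5 weeks was 0.166 and 0.518 CPM, against at most 0.0623 and 0.144. Neither had an Ifng read in soleus. These 3 mice are females of different groups, and they were picked out for their Cxcl9, so the values describe them and test nothing.
Starts of Cxcl9 and Cxcl10 are shown because both were high in these mice (RefSeq, GRCm38.p6, both on the minus strand, chr5:92328030-92328329 and chr5:92348840-92349139). Capitals in Cxcl10 mark, in order, a match to the interferon-stimulated response element (GAAANNGAAA) and 2 NF-kappaB matches. Cxcl9 has no match to the searched letter patterns in this window. Elements with other letters would be missed by this search, so their absence is not shown.
Cxcl9: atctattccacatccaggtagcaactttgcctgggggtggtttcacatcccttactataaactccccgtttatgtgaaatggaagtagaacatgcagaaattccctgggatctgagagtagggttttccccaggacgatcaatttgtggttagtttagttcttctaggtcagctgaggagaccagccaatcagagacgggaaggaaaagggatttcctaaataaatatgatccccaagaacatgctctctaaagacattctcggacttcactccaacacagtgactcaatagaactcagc
Cxcl10: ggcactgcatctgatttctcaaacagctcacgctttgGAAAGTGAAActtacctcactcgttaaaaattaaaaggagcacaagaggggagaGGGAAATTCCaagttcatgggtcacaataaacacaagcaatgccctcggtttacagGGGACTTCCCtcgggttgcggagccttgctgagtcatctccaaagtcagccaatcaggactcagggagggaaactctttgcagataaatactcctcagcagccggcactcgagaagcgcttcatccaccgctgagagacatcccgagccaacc

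The interferon-stimulated element, searched on both strands, occurred in 3.44% of all promoters and in 3 of 53 here. A gamma-activated site (TTCNNNGAA) occurred in 8.3% of all promoters and in 4 of 53, neither Cxcl9 nor Cxcl10 among them. The searched motifs can overlap, and a match shows letters only.

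**Figure D5:**
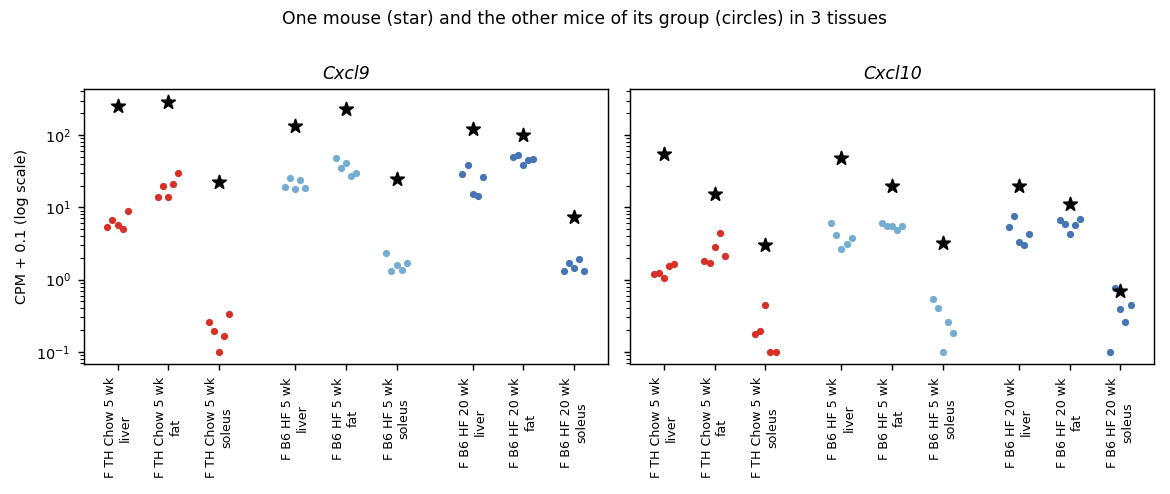
Cxcl9 and Cxcl10 (CPM plus 0.1, log axis) in liver, fat and soleus of the 3 groups that hold a mouse high in Cxcl9, drawn as a star, with the other mice of its group as circles. Each star lies above its group for Cxcl9 in every tissue, and for Cxcl10 in all but the soleus of the B6 female at 20 weeks.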

How the data were processed

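RNA was extracted from whole tissue, with an RNA integrity number above the labels' stated limit, and poly(A) libraries were prepared with a stranded kit, per the labels' protocols. The authors deposited raw read counts per gene. Per the submitters' processing notes, Trimmomatic 0.39, HISAT2 2.2.1, SAMtools, DESeq, DESeq2 and the build GRCm39 were used; no counter, strand setting or annotation is given in the sources used here.

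From the counts, genes were kept per tissue by edgeR's filter (minimum count 10, minimum total 15). Libraries were scaled by TMM, and edgeR 4.0.16 quasi-likelihood F tests compared 16 group means per tissue in 9 contrasts, with Benjamini-Hochberg adjustment over all genes tested and a threshold of 0.05. CPM are counts over TMM-scaled library totals, and per-length levels used GENCODE M21 exon lengths. Standard errors are the log2 difference over the square root of F. Strain differences are TH minus B6, diet differences high-fat minus chow, sex differences male minus female and age differences 20 minus 5 weeks; strain, sex and age were compared on chow. R 4.3.3, DESeq2 1.42.0, Python 3.11.15 and pandas 2.3.3 were used, and the fits were tested on simulated data.

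Within a tissue, mice are separate animals by their labels. The tests set a difference against the spread between animals, estimated over all groups of the tissue. Liver, fat and soleus share 74 mice and were fitted apart, so results in these tissues are not independent. Replicate numbers pair no samples. Any of the 59 genes may be named; library values are given for Ccr3, Ccr2, Ccl2 and Cxcl13 and for the called genes with the largest changes in a comparison, up to 3 each way. Genes outside the rule come from lists of cell markers, receptor signalling, inducers, retention and chemokine-like genes. The genes and lists were chosen with earlier results of these data known. Alternatives were other scaling factors, no filter, DESeq2, only the groups compared, a replicate block and left-out libraries; leaving out lettered labels (15 libraries in 6 groups) and the mice high in Cxcl9 was chosen after seeing the data. Values of some single genes are not reported here, though counts over lists include them.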

Additional observations from a re-analysis of the deposited data

Results flagged for a closer look

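In single groups 1 library lay far from the rest by the gap between it and its neighbour. For normally distributed values about 1 in 20 groups would show this by chance. That rate does not hold for skewed values or counts near 0, so the list is not read against it. The liver Ccr3 entries rest on 1 read in B6 males on chow, and on 6 and 3 reads in B6 females and males on high-fat diet, all at 20 weeks. A group is given by tissue, strain, sex, diet and age, and its far library by CPM, with the next library after it.

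Ccr3 was high in 1 library each in liver of B6 females on high-fat diet at 20 weeks (0.290, next 0.0713), in liver of B6 males on chow at 20 weeks (0.141, next 0), in liver of B6 males on high-fat diet at 20 weeks (0.307, next 0.0944) and in fat of B6 males on chow at 20 weeks (1.46, next 0.309). Ccr2 was high in 1 library each in liver of B6 females on high-fat diet at 20 weeks (10.5, next 3.63), in liver of TH males on chow at 5 weeks (2.17, next 1.10), in soleus of B6 females on high-fat diet at 5 weeks (1.91, next 0.742), in soleus of TH males on chow at 20 weeks (1.42, next 0.379) and in soleus of TH males on chow at 5 weeks (1.25, next 0.294). Ccl2 was high in 1 library each in liver of B6 females on high-fat diet at 20 weeks (5.55, next 1.91), in liver of B6 females on high-fat diet at 5 weeks (5.42, next 1.12), in liver of TH females on chow at 5 weeks (2.88, next 0.587) and in soleus of TH males on chow at 20 weeks (1.51, next 0.629). Cxcl13 was low in 1 liver library of B6 females on high-fat diet at 5 weeks (0.326, next 0.623). Its high libraries were in liver of TH females on chow at 20 weeks (2.04, next 0.758), in liver of TH females on chow at 5 weeks (1.48, next 0.259), in liver of B6 males on chow at 20 weeks (4.65, next 2.09), in liver of B6 males on high-fat diet at 20 weeks (4.19, next 1.13), in liver of TH males on high-fat diet at 20 weeks (1.10, next 0.362), in fat of TH females on chow at 20 weeks (7.00, next 3.54), in fat of TH males on chow at 5 weeks (1.89, next 0.262), in pancreas of TH females on high-fat diet at 5 weeks (11.9, next 3.02) and in pancreas of B6 males on chow at 5 weeks (3.03, next 0.768).

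Effects that differed between groups by their own interaction test, on the log2 scale, were these. In fat the male minus female strain difference was -3.43 for Cxcr5, -2.80 for Cxcl13, -2.23 for Ackr4 and -1.30 for Ackr3. In liver it was -2.87 for Cxcl1. The TH minus B6 diet response at 20 weeks was 1.99 for Cxcl1 and -0.55 for Ccl9 in liver. In soleus it was 1.05 for Cxcl14, 0.99 for Ccl9, 0.89 for Ccl6, 0.73 for Cx3cl1, -0.83 for Ccl25, -0.68 for Ccl11 and -0.51 for Cxcl12.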

How the results depend on the processing

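Of 221 gene calls, RLE factors lost 2, DESeq2 2, the replicate block 8, only the groups compared 15 and no low-count filter 33, and 0 reversed under these settings. The median correlation of same-numbered samples' deviations was between 0.00167 in fat and 0.00982 in soleus, so the numbers were not read as pairs. Under the block the count for age in pancreas went from 3 to 6, and DESeq2 and no filter each gave 5. No filter gave 4 for diet at 5 weeks in liver (from 7), 1 for diet in B6 pancreas (from 0), 2 for sex by strain in fat (from 4) and 3 for strain at 20 weeks in pancreas (from 5). DESeq2 gave 7 for diet in B6 fat (from 4). Only the groups compared gave 3 for strain at 20 weeks in pancreas and 0 for sex by strain in liver (from 1).

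Without lettered labels 116 of 152 calls held, 35 were lost and 1, liver Cxcl1 for sex by strain, reversed to 0.57. Counts then were 1 for diet in B6 fat, 2 for diet in B6 liver (from 10), 1 for the strains' diet responses in liver (from 2), 1 for sex by strain in fat and 0 in liver. Without the B6 female high in Cxcl9 at 20 weeks, diet in B6 gave 1 call in fat and 5 in liver. The B6 female at 5 weeks lost none of 7 liver calls when left out. Without the TH female, 3 of 37 liver, 1 of 28 fat and 2 of 15 soleus calls were lost. Leaving out deviating libraries lost 3 of 134. Leaving out each of 5 TH males in soleus lost at most 1 of 15. Causes were not tested. Pancreas, with the lowest median total, had the fewest genes tested, 16 of 59.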

Other observations

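Cxcl11, an interferon-induced ligand, is annotated as a polymorphic pseudogene in GENCODE M21 and is therefore outside the rule. It was higher in TH soleus at 20 weeks (2.15 ± 0.33, edgeR adjusted p = 1.4e-07), where Cxcl9 was lower (-3.30 ± 0.73). The high-fat diet lowered Cxcl11 in TH soleus (-0.77 ± 0.31, adjusted p = 0.024) and the strains' responses differed (-1.33 ± 0.46, adjusted p = 0.011). In fat Cxcl11 rose with age (0.97 ± 0.25, adjusted p = 0.0023), and in liver it was lower in males (-0.77 ± 0.21, adjusted p = 0.0018).

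Cxcl15 and Cxcl17, both known from mucosal epithelia, did not pass the count filter in any tissue but reached high values in fat of single females. Cxcl17 had 0, 6.91 and 37.6 CPM (lowest, median and highest of 6) in B6 females on chow at 5 weeks, up to 10.6 in B6 females on chow at 20 weeks and up to 11.5 in TH females on high-fat diet at 5 weeks, while no male fat library exceeded 0.331 CPM. Cxcl15 reached 5.86, 6.94 and 13.4 CPM in B6 females on chow at 5 and 20 weeks and in TH females on high-fat diet at 5 weeks.

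Counting intervals cover counting error only. The lettered animal labels and the strand setting of the counts are not explained in the sources used here.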
